A study of Mus musculus with 12 samples.

Results

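Laminins, other matrix glycoproteins and proteoglycans are the non-collagen components of the extracellular matrix. They were followed here through 49 genes chosen by function, with earlier results of these data known. Of these, 48 had a probe set in the deposited table of 25428 probe sets. Efemp2 was not analysed here. RNA had been hybridised to 12 Affymetrix arrays, each from liver sinusoidal endothelial cells, the cells that line the fenestrated capillaries of the mouse liver. The 6 NICD-OE-HEC samples came from mice labelled Mut, with the genotype Clec4g-Cre(tg/wt) together with Rosa26-N1ICD-IRES-GFP, in which a Cre recombinase named for Clec4g, a gene of the sinusoidal endothelium, is combined with a Rosa26 allele for the intracellular, active domain of Notch1 and a green fluorescent protein. The 6 Control samples came from mice labelled Ctrl, whose alleles, like the ages and sexes of both groups, the sources used here do not give. Each sample pooled the cells of 3 mice, taken after collagenase perfusion and a density gradient by magnetic beads against CD146, the product of Mcam.

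Endothelial basement membranes are built from laminin heterotrimers of an alpha, a beta and a gamma chain, which self-assemble at the cell surface and are tied to type IV collagen by nidogens and to growth factors by the heparan sulfate proteoglycans perlecan and agrin. Liver sinusoids are unusual among capillaries in having only a sparse, discontinuous basement membrane, with fibronectin prominent in the space beneath the endothelium. Elastic fibres consist of an elastin core on a scaffold of fibrillin microfibrils, fibulins and emilins, and they are a feature of arteries and portal vessels, where Notch signalling acts in endothelial and mural cells. The question asked of the arrays was how RNA of these components differed in endothelial cells that carry active Notch1.

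Each probe set has 1 value per array, on a log2 scale, and every array had a median of 3.67. A difference is the NICD-OE-HEC mean minus the Control mean, on that log2 scale, and a gene is called changed where limma's p, adjusted over all 25428 probe sets, is under 0.05. Probe sets bind with different strength, so levels of different genes are not compared. Of the Notch target genes, Hey1 averaged 7.11 ± 0.23 in NICD-OE-HEC and 4.42 ± 0.38 in Control (SD, n = 6 each), a difference of 2.70 (adjusted p = 4.15e-08). Hes1 rose by 0.76 (adjusted p = 0.000757) and Nrarp, a Notch-induced feedback inhibitor, by 1.04 (adjusted p = 2.23e-05). Notch1 itself averaged 8.87 and 8.68 (difference 0.19, adjusted p = 0.486), and the sources used here do not say whether its probes lie within the intracellular part. The endothelial cadherin gene Cdh5 was at 11.51 in NICD-OE-HEC and 11.50 in Control. Of the 9 pan-endothelial genes listed, Cdh5 among them, 2 rose, 3 fell and 4 were not called, with differences of -0.60 to 0.92. The sinusoidal marker Stab2 fell to 10.00 in NICD-OE-HEC, against 11.31 in Control (adjusted p = 3.59e-07). Another sinusoidal marker, Lyve1, was 0.83 higher (adjusted p = 5.45e-05), and of the 10 sinusoidal markers listed 1 rose and 9 fell. Arrays correlated at 0.976 to 0.989 within NICD-OE-HEC, 0.977 to 0.992 within Control and 0.965 to 0.982 between the groups. Control 2 and NICD-OE-HEC 4 stood apart from the rest on the second principal component, which held 16.4% of the variance, and without both of them 22 of the matrix genes were called higher and 4 lower.

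With all arrays, 23 of the 48 matrix genes rose in NICD-OE-HEC and 3 fell, while 22 were not called. Over all probe sets 4.89% were called higher and 5.59% lower (10.5% in either direction), against 47.9% and 6.25% of the matrix genes. Among the 13066 probe sets with a group mean at or above the array median, 8.71% were called higher and 10.3% lower. The matrix genes were chosen with earlier results of these data known, so these shares only describe the list. The median difference was 0.38 over the 48 matrix genes and -0.01 over all probe sets. Genes that rose most were Mgp, Fn1, Postn, Fbln2, Thbs1, Eln, Sparcl1, Fbln5 and Lamc1, which are the 9 that rose by at least 1 log2 unit. The 3 that fell were Emilin1, Lama3 and Thbs2, of which Emilin1 and Lama3 fell by at least 1. Differences of that size were rarer over all probe sets, where 1.3% were called higher by at least 1 and 0.79% lower. In 19 matrix genes every NICD-OE-HEC array lay above every Control array and in 2 every one lay below, against 2.98% and 3.7% of all probe sets, 6.68% in either direction. No gene was filtered out for a low value, but 8 of the 48 had both group means below the array median, and these low values cannot be told from background without detection calls. They were Lama1, Lama2, Lamb3, Thbs3, Thbs4, Fbn2, Mfap5 and Vcan, and 0 of the 8 were called. Because the arrays measured RNA of a bulk cell fraction, fewer cells of a type and less RNA per cell cannot be told apart.

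**Figure D1:**
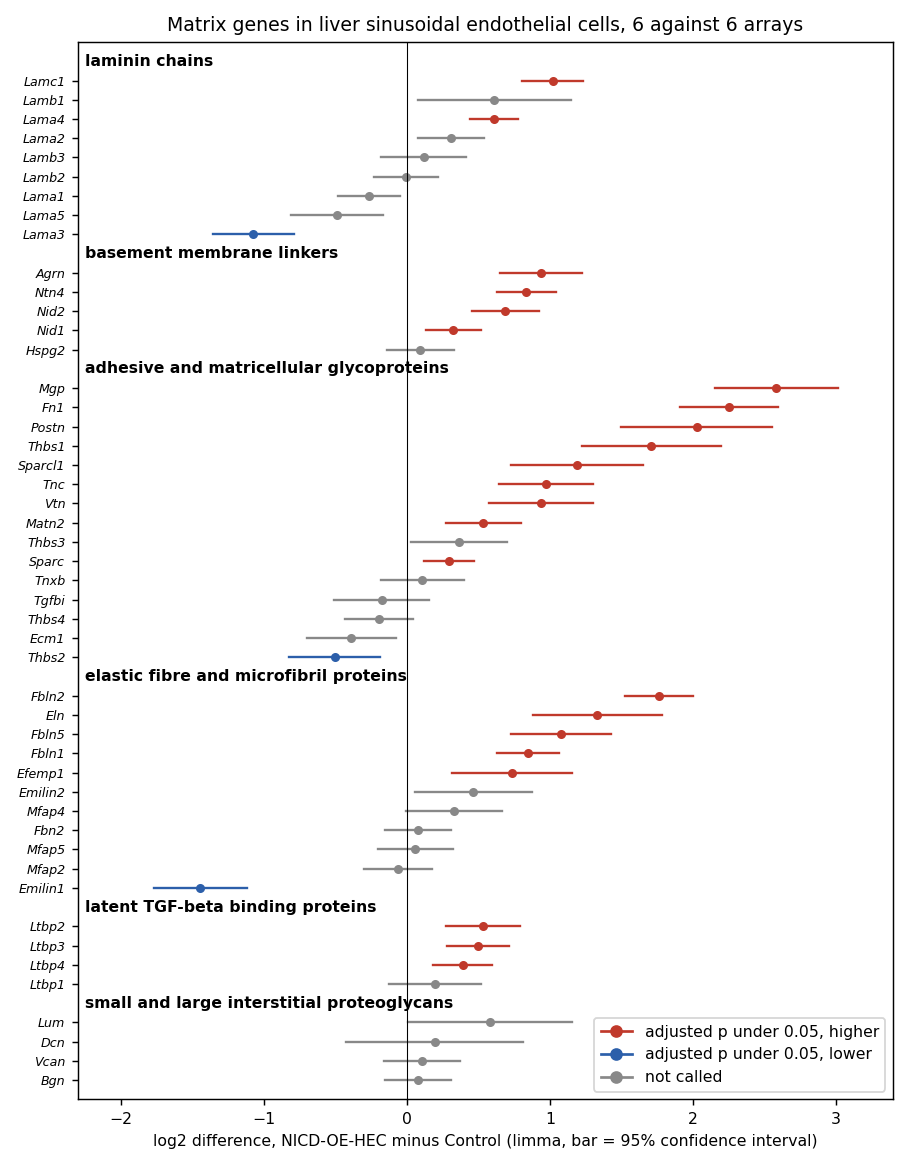
Difference of each of the 48 matrix genes between NICD-OE-HEC and Control (log2, NICD-OE-HEC minus Control; points, estimates; bars, 95% confidence intervals), grouped by role; points right of 0 are higher in NICD-OE-HEC. Differences run from -1.45 for Emilin1 to 2.58 for Mgp, and called genes are red where higher and blue where lower.

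**Figure D2:**
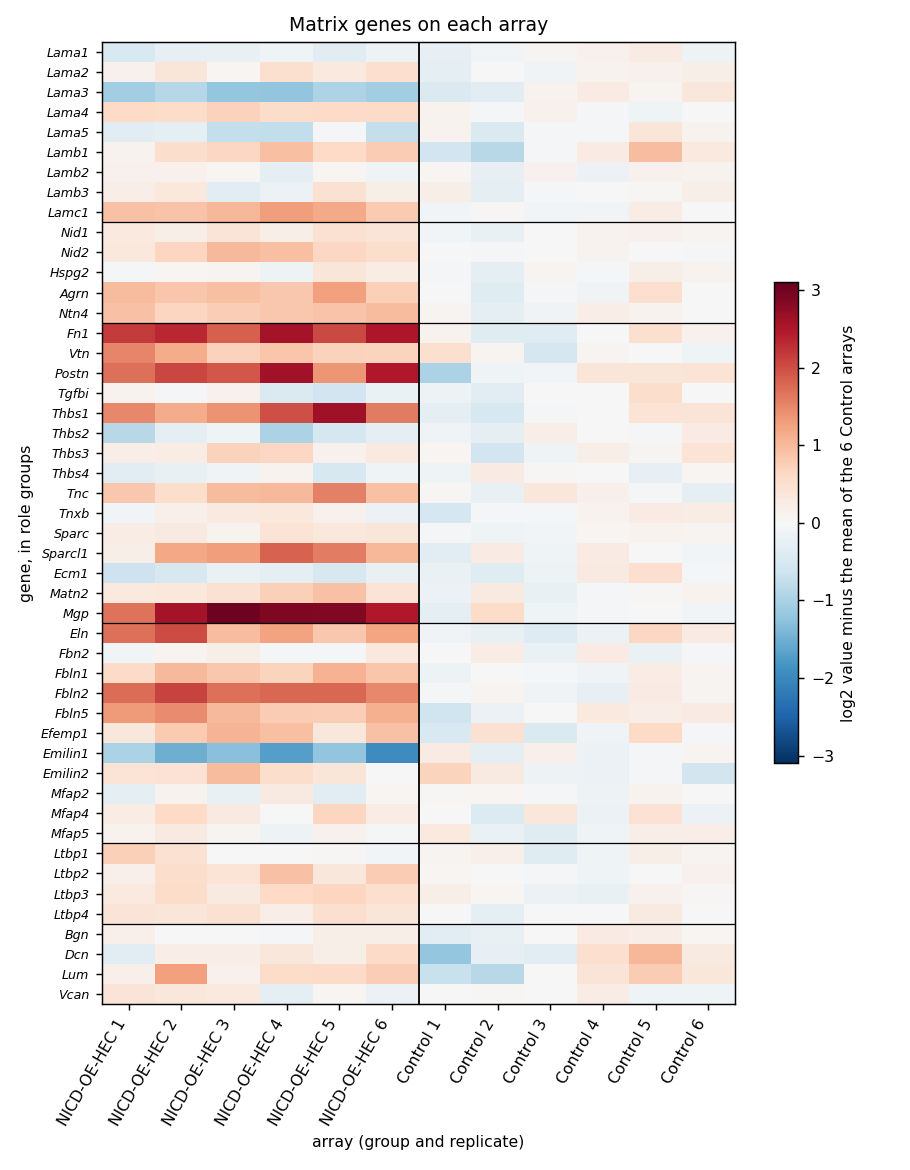
Value of each matrix gene on each of the 12 arrays minus the mean of the 6 Control arrays (log2, colour), with NICD-OE-HEC arrays on the left and Control arrays on the right. Mgp, Fn1, Postn and Fbln2 are high on all 6 NICD-OE-HEC arrays and Emilin1 is low on all 6.

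Notch acts on DNA through RBPJ, which binds sites around the core TGGGAA, so RefSeq promoter windows (build GRCm38.p6, 250 bases before to 50 after an annotated start) were searched for that core on both strands, TTCCCA being the same core on the opposite one. Of the 48 genes, 32 had at least 1 window in the table, 43 windows in all. The core stood in a window of 16 of the 32 genes (50%), against 28.3% of the 27025 genes in the whole table. It stood in windows of 7 of the 14 genes that rose and had a window, namely Fbln1, Fbln5, Ltbp3, Nid1, Ntn4, Tnc and Vtn. It was also in 9 of the 16 that were not called, a share of 56.2% against 50% of those that rose, and in 0 of the 2 that fell. A longer form, GTGGGAA, which contains the core, was found in 5 of the 32 genes (15.6%), against 7.25% of all genes, and among those that rose in Ntn4 and Tnc. Windows of these 2 genes are shown because they hold the longer form, and those of Fbln2 and Emilin1 because these genes were among the strongest in each direction and hold no match. Tnc had a further window with another start, chr4:64046887-64047186, not printed. It holds the same longer form, with the core at base -81 from that start, against -2 in the window printed. Capitals mark TGGGAA or TTCCCA. A match is a run of letters and no measured binding site.
Ntn4, chr10:93640799-93641098, plus strand: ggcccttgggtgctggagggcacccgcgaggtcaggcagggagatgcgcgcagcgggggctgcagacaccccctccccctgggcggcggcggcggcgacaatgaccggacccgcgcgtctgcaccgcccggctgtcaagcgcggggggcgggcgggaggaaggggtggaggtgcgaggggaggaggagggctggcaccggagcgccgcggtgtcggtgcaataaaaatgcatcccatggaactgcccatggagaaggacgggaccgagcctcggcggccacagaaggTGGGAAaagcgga
Tnc, chr4:64046966-64047265, minus strand: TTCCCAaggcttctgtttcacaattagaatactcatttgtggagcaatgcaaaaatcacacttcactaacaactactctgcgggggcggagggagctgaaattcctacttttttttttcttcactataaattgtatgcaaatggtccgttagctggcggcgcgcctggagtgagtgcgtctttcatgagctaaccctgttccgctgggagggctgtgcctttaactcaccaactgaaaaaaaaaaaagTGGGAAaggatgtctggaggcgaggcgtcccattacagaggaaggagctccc
Fbln2, chr6:91212514-91212813, plus strand: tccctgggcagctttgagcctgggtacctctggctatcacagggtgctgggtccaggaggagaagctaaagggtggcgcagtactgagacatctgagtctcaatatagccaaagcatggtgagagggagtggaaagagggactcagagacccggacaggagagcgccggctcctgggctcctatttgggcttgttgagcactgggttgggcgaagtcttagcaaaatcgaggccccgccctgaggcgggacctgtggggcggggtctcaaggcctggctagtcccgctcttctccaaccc
Emilin1, chr5:30913536-30913835, plus strand: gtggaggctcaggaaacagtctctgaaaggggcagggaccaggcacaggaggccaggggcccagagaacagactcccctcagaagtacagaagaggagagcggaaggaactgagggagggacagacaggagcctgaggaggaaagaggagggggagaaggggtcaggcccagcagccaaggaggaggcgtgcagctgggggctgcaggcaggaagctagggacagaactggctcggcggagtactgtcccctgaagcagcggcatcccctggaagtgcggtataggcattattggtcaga

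Among the 9 laminin chains, 2 rose, 1 fell and 6 were not called, with a median difference of 0.12. The chains that rose were alpha 4 and gamma 1, and the chain that fell was alpha 3. Lamc1, the gamma chain shared by most laminins, had a lowest, median and highest value of 8.11, 8.27 and 8.60 in NICD-OE-HEC, against 7.20, 7.26 and 7.53 in Control. All 6 NICD-OE-HEC arrays were above all Control arrays, and the difference was 1.02 ± 0.10 (SE, 2.03-fold, adjusted p = 5.93e-06). Lama4, which encodes the alpha 4 chain of endothelial laminins, had values of 9.31, 9.34 and 9.47 in NICD-OE-HEC and 8.62, 8.72 and 8.89 in Control. The groups were again separate, with a narrow spread in NICD-OE-HEC (SD 0.06), and Lama4 rose by 0.61 ± 0.08 (1.53-fold, adjusted p = 7.52e-05). Lama3 encodes the alpha 3 chain, best known from epithelial laminins. It stood at 4.15, 4.30 and 4.49 in NICD-OE-HEC, against 4.93, 5.47 and 5.73 in Control, every NICD-OE-HEC array lying below the lowest Control array. The change was -1.07 (95% interval -1.36 to -0.79, 2.1-fold lower, adjusted p = 6.42e-05).

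Lama5, the alpha chain of mature vessel walls, was lower on most NICD-OE-HEC arrays but did not pass the test. Its values were 5.39, 5.63 and 6.10 in NICD-OE-HEC and 5.71, 6.19 and 6.53 in Control, a difference of -0.49 (95% interval -0.81 to -0.17, adjusted p = 0.0529). It passed without NICD-OE-HEC 5 (-0.57, adjusted p = 0.0211) and without Control 2 (-0.58, adjusted p = 0.0142), and with the dimmest 50% of probe sets left out (adjusted p = 0.0324). Lamb1 and Lamb2, the alternative beta chains of vascular laminins, were not called. Lamb2 had group medians of 7.81 and 7.83 (difference -0.01, 95% interval -0.23 to 0.22, adjusted p = 0.986). Lamb1 spread widely, from 4.13 to 4.95 in NICD-OE-HEC and from 3.14 to 4.98 in Control, a difference of 0.61 with an interval of 0.08 to 1.15 (adjusted p = 0.158), and it passed without Control 5 (0.80, adjusted p = 0.0259). The remaining chains, Lama1, Lama2 and Lamb3, were below the array median in both groups, with differences of -0.27, 0.31 and 0.12.

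Of the 5 components that link basement membranes, 4 rose and perlecan did not pass the test, with a median difference of 0.69. Agrn encodes agrin, a heparan sulfate proteoglycan that binds laminin. Its values were 8.0, 8.17 and 8.54 in NICD-OE-HEC and 6.89, 7.25 and 7.80 in Control. Array 5 was the highest of each group, the groups did not overlap, and Agrn rose by 0.94 ± 0.13 (1.91-fold, adjusted p = 0.000224). Ntn4, a laminin-related netrin of basement membranes whose promoter window is printed above, had 10.37, 10.58 and 10.68 in NICD-OE-HEC, against 9.42, 9.75 and 9.93 in Control. Here too the groups were separate, by 0.84 ± 0.10 (1.78-fold, adjusted p = 3.16e-05). The nidogens join laminin to type IV collagen. Nid2 stood at 5.67, 5.99 and 6.35 in NICD-OE-HEC and 5.28, 5.31 and 5.46 in Control. The Control arrays lay close together below all NICD-OE-HEC arrays, and Nid2 rose by 0.69 ± 0.11 (1.61-fold, adjusted p = 0.000531).

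Nid1 rose less, by 0.33 ± 0.09 (adjusted p = 0.0302), with values of 9.06, 9.22 and 9.34 in NICD-OE-HEC and 8.63, 8.92 and 8.99 in Control. Its call was lost when NICD-OE-HEC 3, 5 or 6 or Control 1, 2 or 3 was left out in turn, with differences of 0.28 to 0.33 and adjusted p of 0.0501 to 0.0684. Hspg2, which encodes perlecan, was at 9.16 to 9.70 in NICD-OE-HEC and 9.03 to 9.50 in Control. That difference had a 95% interval of -0.14 to 0.33 (adjusted p = 0.709).

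The collagen network to which these proteins attach was given by 8 genes, of which 1 rose and 3 fell, with a median difference of -0.01. Col4a1, a main chain of type IV collagen, was 0.42 higher (adjusted p = 0.0309), a call lost when NICD-OE-HEC 2, 4, 5 or 6 or Control 2, 3 or 4 was left out in turn (0.37 to 0.42, adjusted p up to 0.0796). Pxdn, whose peroxidase crosslinks type IV collagen, averaged 8.62 in NICD-OE-HEC and 9.10 in Control (difference -0.48, adjusted p = 0.00602). The other chains that fell, Col4a3 by -0.49 (adjusted p = 0.00167) and Col4a4 by -0.40 (adjusted p = 0.0414), lay near or below the array median. The Col4a4 call was lost without any of NICD-OE-HEC 3, 4, 5 or 6 or Control 3, 4, 5 or 6 (-0.43 to -0.31, adjusted p up to 0.092).

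Of the 15 adhesive and matricellular glycoproteins, 9 were higher, 1 lower and 5 not called, with a median difference of 0.53. Mgp encodes matrix Gla protein, an inhibitor of vascular calcification and of bone morphogenetic proteins. Its values in NICD-OE-HEC were 8.25, 9.13, 9.57, 9.45, 9.43 and 9.03 on arrays 1 to 6, against 6.26, 7.12, 6.42, 6.53, 6.56 and 6.47 in Control. The lowest NICD-OE-HEC array was above the highest Control array, and Mgp rose by 2.58 ± 0.20 (5.99-fold, adjusted p = 6.28e-07).

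Fn1 encodes fibronectin, the adhesive protein of the space beneath sinusoidal endothelium, where integrins bind it. Its values in NICD-OE-HEC were 7.82, 7.98, 7.50, 8.23, 7.68 and 8.14, against 5.76, 5.27, 5.26, 5.63, 6.15 and 5.77 in Control. The gap between the groups exceeded 1 log2 unit, and Fn1 rose by 2.25 ± 0.16 (4.77-fold, adjusted p = 2.76e-07). Postn, the gene of periostin, a fasciclin-domain protein of fibrous tissue, had 6.05, 6.41, 6.27, 6.94, 5.70 and 6.83 in NICD-OE-HEC, against 3.37, 4.21, 4.25, 4.71, 4.72 and 4.77 in Control. The groups were separate, Control 1 was the lowest array and lay below the array median, and the difference was 2.03 ± 0.25 (4.07-fold, adjusted p = 5.36e-05). Tgfbi, the other fasciclin-domain gene among the 48 matrix genes, was not called, with medians of 7.52 and 7.63 (difference -0.18, 95% interval -0.51 to 0.16, adjusted p = 0.596).

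**Figure D3:**
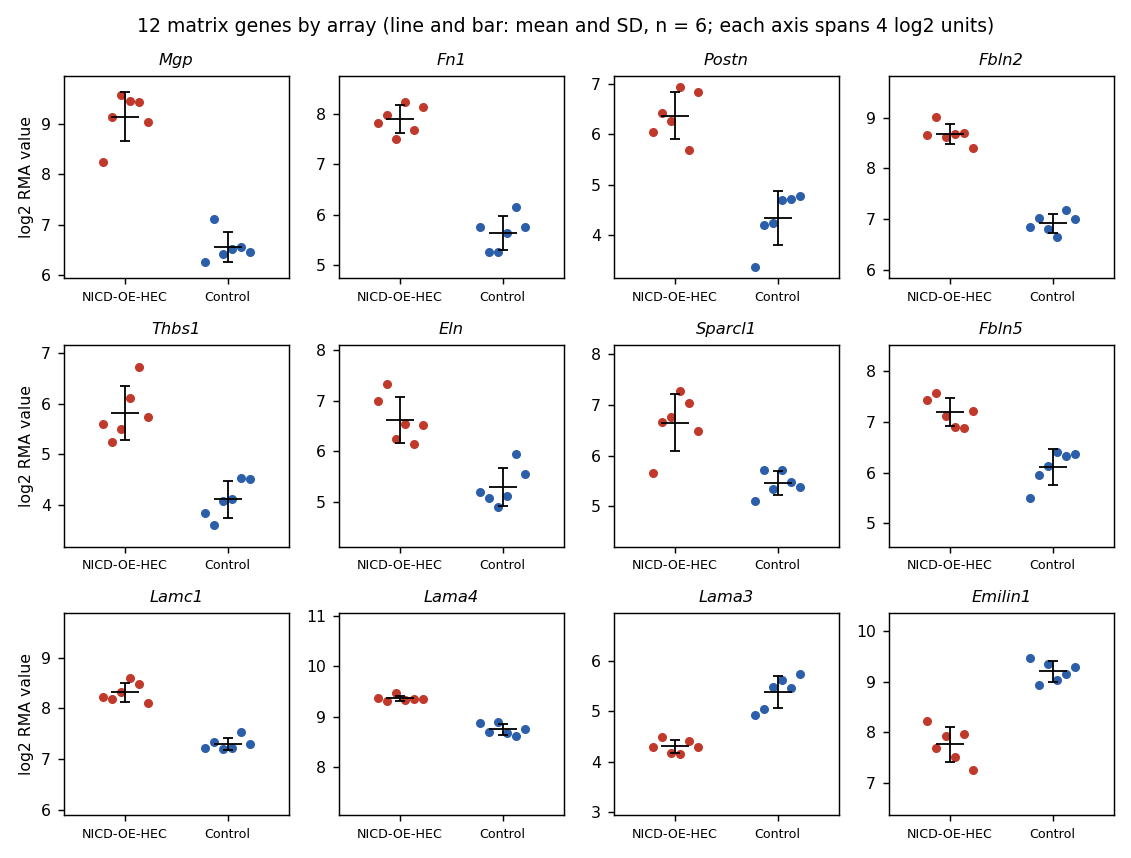
Log2 expression value of 12 matrix genes on each array (points), NICD-OE-HEC left of Control, with lines and bars for mean and SD (n = 6); each axis spans 4 log2 units, and levels are not comparable between genes. Mgp, Fn1, Postn, Fbln2, Thbs1, Eln, Fbln5, Lamc1 and Lama4 have all 6 NICD-OE-HEC arrays above Control, Lama3 and Emilin1 all 6 below, and Sparcl1 overlaps.

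Thrombospondins bind cell surface receptors, and thrombospondin 1 can release TGF-beta from its latent complex and restrains angiogenesis. Thbs1 was at 5.59, 5.25, 5.51, 6.11, 6.74 and 5.73 in NICD-OE-HEC and 3.83, 3.60, 4.07, 4.12, 4.53 and 4.50 in Control. The groups were separate and Thbs1 rose by 1.71 ± 0.23 (3.27-fold, adjusted p = 0.000109). Array 5 was the highest for Thbs1 in each group. It was also the highest in the mean over 10 early-response genes, a list of transcripts that rise within minutes of cell handling or stimulation, of which 8 rose. That mean ran from 8.12 to 9.91 in NICD-OE-HEC and from 6.73 to 8.28 in Control. Platelets also carry thrombospondin 1. Of 6 platelet markers, 2 rose (Ppbp by 1.01, adjusted p = 0.00742, and Pf4 by 0.56, adjusted p = 0.00299), and Itga2b, the defining integrin chain of platelets, was at 4.20 and 4.18 (adjusted p = 0.972). The platelet list mean was 4.37 to 4.75 in NICD-OE-HEC and 4.09 to 4.34 in Control. The part of either list in the Thbs1 value was not tested.

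Thbs2, whose product also restrains angiogenesis, fell by 0.51 ± 0.15 (1.42-fold lower, adjusted p = 0.0432). It stood at 4.03, 4.60 and 4.88 in NICD-OE-HEC, against 4.70, 4.98 and 5.25 in Control, so the groups overlapped. The call was lost when any of NICD-OE-HEC 1, 4 or 5 or Control 1, 3, 4, 5 or 6 was left out, with differences of -0.53 to -0.41 and adjusted p up to 0.102. Thbs3 and Thbs4 lay below the array median and were not called, with differences of 0.36 and -0.19.

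Tnc encodes tenascin C, a large hexameric glycoprotein of remodelling tissue. It had 3.66, 4.07 and 4.69 in NICD-OE-HEC, against 2.82, 3.13 and 3.48 in Control. The groups were separate and the difference was 0.97 ± 0.15 (adjusted p = 0.000524), but all 6 Control arrays were below the array median, so the size of the change is inexact. Its highest array was again NICD-OE-HEC 5. Tnxb, its relative in loose connective tissue, had medians of 5.05 and 4.94 (difference 0.11, adjusted p = 0.743). Matn2, which encodes a filament-forming matrilin, rose by 0.53 (adjusted p = 0.00978) without overlap, with 5 of 6 Control arrays below the array median.

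Sparc and Sparcl1 encode counter-adhesive proteins that bind collagen. Sparcl1 had 5.65, 6.71 and 7.28 in NICD-OE-HEC and 5.11, 5.43 and 5.72 in Control. Only NICD-OE-HEC 1 reached into the Control range, and Sparcl1 rose by 1.19 ± 0.22 (2.28-fold, adjusted p = 0.00172). Sparc rose by 0.29 ± 0.08 (adjusted p = 0.032), with 11.09 to 11.40 in NICD-OE-HEC and 10.85 to 11.09 in Control. Its call was lost on leaving out NICD-OE-HEC 2, 4, 5 or 6 or Control 1, 2, 3 or 4 in turn, with differences of 0.27 to 0.30 and adjusted p up to 0.078, and without Control 2 and NICD-OE-HEC 4 together (0.24, adjusted p = 0.0904).

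Vtn encodes vitronectin, a plasma adhesion protein made in bulk by hepatocytes. It was at 7.19, 6.83, 6.40, 6.54, 6.40 and 6.38 in NICD-OE-HEC and 6.18, 5.78, 5.16, 5.78, 5.69 and 5.55 in Control. The groups did not overlap and Vtn rose by 0.94 ± 0.17 (1.91-fold, adjusted p = 0.00176). Hepatocyte transcripts moved with it: of 11 hepatocyte markers 6 rose, Alb, the albumin gene, by 1.13 (adjusted p = 0.00174), and the list mean was 7.14 to 8.67 in NICD-OE-HEC and 6.39 to 7.84 in Control. Array 1 was the highest of its group for both Vtn and the hepatocyte mean. The part of hepatocyte RNA in the Vtn value was not tested. Ecm1, a secreted glycoprotein abundant in liver that restrains TGF-beta activation, was not called, at 8.05, 8.31 and 8.49 in NICD-OE-HEC and 8.32, 8.57 and 9.22 in Control (difference -0.39, 95% interval -0.70 to -0.08, adjusted p = 0.114). It passed without Control 2 (-0.46, adjusted p = 0.0484).

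Elastic fibre and microfibril genes were 11 of the 12 listed, of which 5 rose, 1 fell and 5 were not called, with a median difference of 0.46. Eln encodes tropoelastin, the fibre's core. Its values were 6.99, 7.32, 6.24, 6.53, 6.13 and 6.52 in NICD-OE-HEC, against 5.19, 5.07, 4.90, 5.11, 5.94 and 5.55 in Control. The groups were separate, though Control 5 came close to the lowest NICD-OE-HEC array, which was also array 5. Eln rose by 1.33 ± 0.21 (2.52-fold, adjusted p = 0.00051).

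Fibulins bridge elastin, fibrillin and the cell surface, and Fbln2, Fbln5, Fbln1 and Efemp1 all rose. Fbln2 was at 8.66, 9.01, 8.62, 8.69, 8.69 and 8.41 in NICD-OE-HEC and 6.85, 7.01, 6.80, 6.65, 7.17 and 7.01 in Control. It had the smallest adjusted p of the 48 matrix genes, 6.95e-08, for a difference of 1.76 ± 0.11 (3.4-fold). Fbln5, which is needed to assemble elastic fibres, had 6.88, 7.18 and 7.57 in NICD-OE-HEC and 5.49, 6.23 and 6.41 in Control. The groups did not overlap and the difference was 1.08 ± 0.17 (2.11-fold, adjusted p = 0.000391). Fbln1, a fibulin of basement membranes and elastic fibres, had 4.67, 4.93 and 5.16 in NICD-OE-HEC and 3.91, 4.05 and 4.31 in Control, a rise of 0.84 ± 0.10 without overlap (1.8-fold, adjusted p = 4.75e-05). Efemp1, a related short fibulin, rose by 0.74 ± 0.20 (adjusted p = 0.025), with 6.35, 6.85 and 7.06 in NICD-OE-HEC and 5.52, 5.92 and 6.61 in Control. Control 2 and Control 5 lay within the NICD-OE-HEC range. The Efemp1 call was lost on leaving out NICD-OE-HEC 2, 3, 4 or 6 or Control 1, 3, 4 or 6 in turn, with differences of 0.64 to 0.73 and adjusted p up to 0.0652.

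Emilin1, an elastin-associated glycoprotein that binds integrins and restrains TGF-beta precursor processing, went the other way. It had 8.23, 7.69, 7.92, 7.51, 7.97 and 7.25 in NICD-OE-HEC, against 9.47, 8.94, 9.36, 9.03, 9.16 and 9.29 in Control. Every NICD-OE-HEC array was below every Control array, and Emilin1 fell by 1.45 on the log2 scale (SE 0.15, 2.72-fold lower, adjusted p = 1.13e-05). Emilin2, its closest relative here, was at 5.19 to 6.15 in NICD-OE-HEC and 4.60 to 5.86 in Control (difference 0.46, 95% interval 0.05 to 0.87, adjusted p = 0.162). It passed without Control 1, its highest Control array (0.60, adjusted p = 0.0355). The microfibril genes Fbn2, Mfap2, Mfap4 and Mfap5 were not called, with differences of -0.06 to 0.33, and lay near or below the array median.

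Elastin becomes a fibre once lysyl oxidases crosslink it. Of 6 crosslinking enzymes 2 rose and 1 fell, with a median difference of 0.00. Lox averaged 5.21 ± 0.18 in NICD-OE-HEC and 3.82 ± 0.16 in Control (difference 1.39, adjusted p = 4.37e-07), and Loxl1, the isoform tied to elastin renewal, averaged 5.12 ± 0.41 and 3.95 ± 0.31 (difference 1.17, adjusted p = 0.000535). Loxl3 fell to 5.52 ± 0.17 in NICD-OE-HEC, against 6.41 ± 0.24 in Control (adjusted p = 0.000117). None of these 3 had overlapping groups.

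Latent TGF-beta binding proteins hold TGF-beta in the matrix, and 3 of the 4 rose, with a median difference of 0.44. Ltbp4, which also helps build elastic fibres, had 10.78, 10.95 and 11.07 in NICD-OE-HEC and 10.26, 10.57 and 10.84 in Control, a difference of 0.39 ± 0.10 (adjusted p = 0.0154). Control 5 alone lay inside the NICD-OE-HEC range. Ltbp3 had 5.12, 5.39 and 5.51 in NICD-OE-HEC and 4.62, 4.89 and 5.03 in Control, separate groups with a difference of 0.49 ± 0.10 (adjusted p = 0.00447). Ltbp2, a microfibril protein that does not bind latent TGF-beta, rose by 0.53 (adjusted p = 0.00915) without overlap, from a Control group with 5 of 6 arrays below the array median. Ltbp1 was not called, at 4.11 to 4.94 in NICD-OE-HEC and 3.82 to 4.38 in Control (difference 0.20, adjusted p = 0.524). Of 6 genes for TGF-beta ligands and their activation, Tgfb3 rose by 0.60 (adjusted p = 0.00933) and the other 5 were not called.

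None of the 4 interstitial proteoglycans was called, and their median difference was 0.15. Bgn encodes biglycan, a small leucine-rich proteoglycan that binds collagen and TGF-beta. It had medians of 11.29 in NICD-OE-HEC and 11.25 in Control, with a 95% interval of the difference of -0.15 to 0.31 (adjusted p = 0.77). Dcn, for decorin, a collagen-binding relative, was at 7.77, 8.33, 8.32, 8.48, 8.30 and 8.71 in NICD-OE-HEC and 6.92, 7.87, 7.76, 8.64, 9.14 and 8.41 in Control. Control arrays spanned the whole NICD-OE-HEC range, with an interval of the difference of -0.42 to 0.81 (adjusted p = 0.787). Lum, for lumican, which regulates collagen fibril spacing, was at 3.88, 4.34 and 5.02 in NICD-OE-HEC and 2.89, 3.93 and 4.54 in Control (difference 0.58, adjusted p = 0.221). Vcan, for versican, a large hyaluronan-binding proteoglycan, was below the array median in both groups.

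Dcn and Lum are made mainly by stellate cells and fibroblasts, and in Control both were highest on the array where the mean of 12 stellate cell and fibroblast markers was highest. That mean was 5.22, 5.69, 5.24, 5.46, 5.39 and 5.54 on NICD-OE-HEC arrays 1 to 6, against 4.30, 4.41, 4.57, 4.75, 5.35 and 4.92 on Control arrays 1 to 6. Lamb1 had its highest Control value, 4.98, on the same array 5. In NICD-OE-HEC the mean was highest on array 2, as was Lum, while Dcn was highest on array 6 and Lamb1 on array 4. Of the 12 markers 5 rose and 1 fell. Those that rose included the fibrillar collagen genes Col1a1 (by 2.49, adjusted p = 2.98e-06), Col3a1 (by 2.11, adjusted p = 3.66e-06) and Col1a2 (by 1.71, adjusted p = 6.39e-05), and Dpt, a dermatopontin of fibroblasts (by 2.16, adjusted p = 9.13e-05). Lrat, the retinol-storing enzyme of stellate cells, fell to 4.62 ± 0.27 in NICD-OE-HEC, against 5.37 ± 0.29 in Control (adjusted p = 0.00334). The stellate cell genes Reln and Hand2 had differences of -0.59 (adjusted p = 0.302) and -0.32 (adjusted p = 0.232), and Pdgfrb, a mesenchymal receptor, had 0.58 (adjusted p = 0.0531), passing without NICD-OE-HEC 3 (0.66, adjusted p = 0.0357) or without Control 5 (0.71, adjusted p = 0.00866). The part of these cells in the matrix values was not tested.

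**Figure D4:**
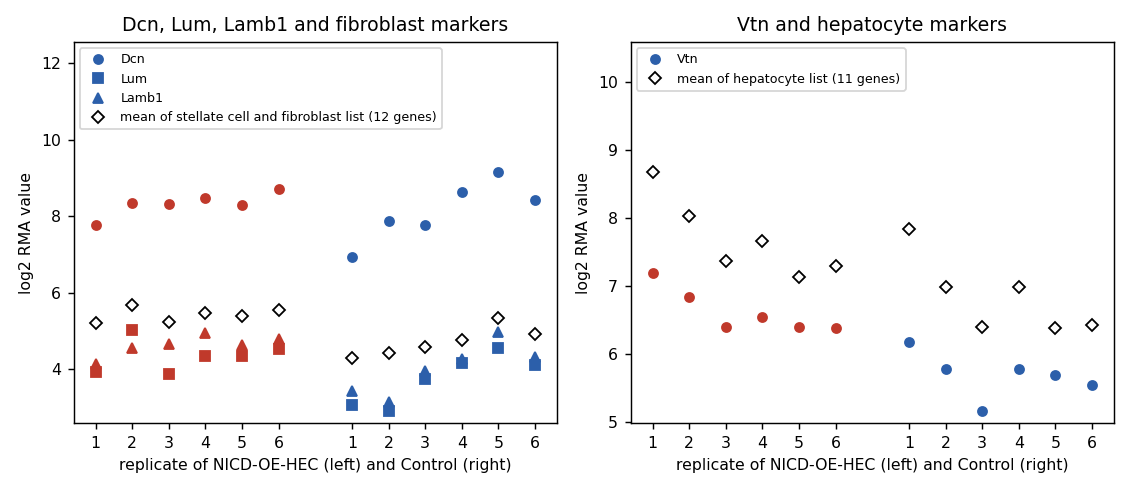
Log2 values of Dcn, Lum and Lamb1 with the mean of 12 stellate cell and fibroblast markers, and of Vtn with the mean of 11 hepatocyte markers, on each array (open diamonds, list means); NICD-OE-HEC arrays 1 to 6 are red, left of Control arrays 1 to 6 in blue. In Control the stellate mean is lowest on array 1 (4.30) and highest on array 5 (5.35), where Dcn, Lum and Lamb1 are also highest.

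Smooth muscle cells and pericytes, which carry CD146 and make elastin, fibulins and matrix Gla protein in vessel walls, were followed by 10 markers, of which 7 rose. Their list mean was 6.11 to 6.64 in NICD-OE-HEC, against 5.11 to 5.56 in Control. The potassium channel genes Abcc9 and Kcnj8 rose by 3.26 (adjusted p = 1.13e-10) and 2.99 (adjusted p = 2e-08), Rgs5, a pericyte signalling gene, by 1.09 (adjusted p = 0.000289) and the contractile gene Tagln by 0.94 (adjusted p = 0.0114). Of the contractile genes that define smooth muscle, Acta2 rose by 0.78 (adjusted p = 0.0209) and Myh11 by 0.50 (adjusted p = 0.0217), and both calls were lost without Control 3 (0.73, adjusted p = 0.0544, and 0.45, adjusted p = 0.0586). Mcam itself, whose product the beads bind, averaged 9.38 ± 0.21 in NICD-OE-HEC and 8.46 ± 0.22 in Control (adjusted p = 0.000107). Among the other cell types, 5 of 5 cholangiocyte markers rose (list mean 4.71 to 5.16 in NICD-OE-HEC, 3.98 to 4.41 in Control), as did 7 of 8 neutrophil markers (5.15 to 7.57 and 3.28 to 4.81). Mesothelial markers rose in 1 of 7 (4.28 to 4.51 and 4.07 to 4.31) and Kupffer cell markers in 1 of 8 (7.78 to 9.28 and 7.56 to 8.82). Of 9 pan-endothelial genes, 2 rose and 3 fell. What these lists contribute to the matrix genes was not tested.

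Members of one family did not change alike in 7 of 10 pairs, by a two-sided exact permutation test of the difference between the pair's differences over the 924 ways to choose 6 of 12 arrays, adjusted over the 10 pairs. The smallest p this test can give, 0.002165, was reached by Lama4 against Lama5, Thbs1 against Thbs2, Emilin1 against Emilin2 and Postn against Tgfbi (adjusted p = 0.00541 each). Lama4 changed by 1.10 more than Lama5 (95% interval 0.70 to 1.50), Thbs1 by 2.22 more than Thbs2 (1.50 to 2.93) and Postn by 2.20 more than Tgfbi (1.54 to 2.86). For Emilin1 minus Emilin2 the value was -1.91 (-2.43 to -1.39). In these 4 pairs the genes' own differences had opposite signs, though Lama5, Emilin2 and Tgfbi were not called. Lamb1 and Lamb2 had opposite signs too, but neither was called and the Lamb2 difference was near 0. Within pairs whose members both rose, the value was -0.90 for Sparc minus Sparcl1 (-1.44 to -0.36, adjusted p = 0.0144), 0.69 for Fbln2 minus Fbln5 (0.26 to 1.11, adjusted p = 0.0144) and -0.36 for Nid1 minus Nid2 (-0.66 to -0.07, adjusted p = 0.034). The nidogen call was lost when NICD-OE-HEC 4 or Control 1, 3, 4, 5 or 6 was left out in turn (adjusted p up to 0.0804). No difference passed for Lamb1 minus Lamb2 (0.62, -0.05 to 1.28, adjusted p = 0.0947), Ltbp3 minus Ltbp4 (0.10, -0.19 to 0.40, adjusted p = 0.476) or Bgn minus Dcn (-0.12, -0.73 to 0.50, adjusted p = 0.695). The Lamb1 and Lamb2 pair passed without Control 5 (0.78, adjusted p = 0.0371). Low probe sets compress differences in RMA values, so a pair's value compares responses of probe sets on this scale.

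**Figure D5:**
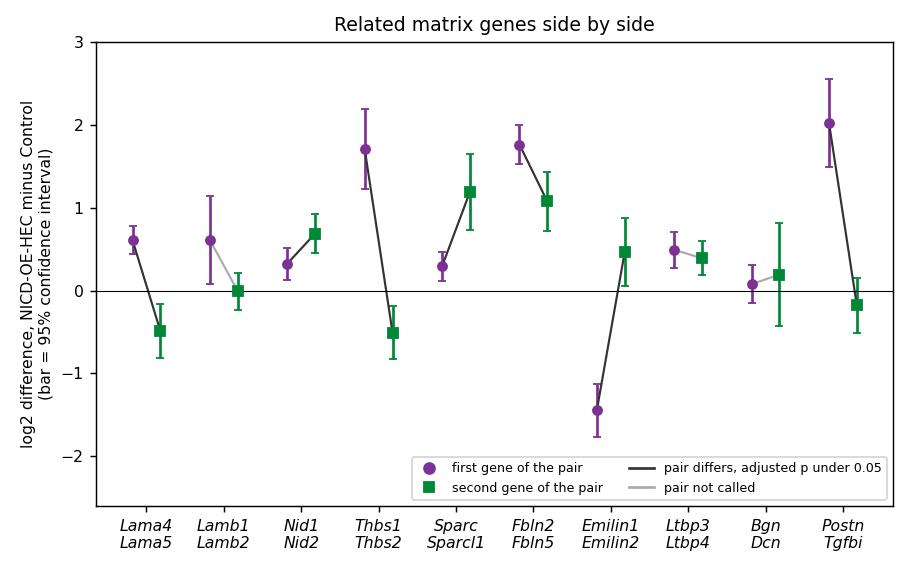
NICD-OE-HEC minus Control difference (log2) of both genes of 10 related pairs, circles for the upper name and squares for the lower, with 95% confidence intervals of each gene; a dark line joins the 7 pairs that differed in the permutation test and a pale line the other 3. The lines cross 0 steeply for Thbs1 and Thbs2, Emilin1 and Emilin2, and Postn and Tgfbi.

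Matrix receptors were taken from a list of 22 genes, of which 10 rose and 1 fell, with a median difference of 0.23. The largest rises were in Itga2, a collagen- and laminin-binding integrin chain (1.39, adjusted p = 9.51e-06, with 5 of 6 Control arrays below the array median), and in Itgb3, whose integrin binds fibronectin, vitronectin and periostin (7.82 ± 0.33 in NICD-OE-HEC and 6.74 ± 0.32 in Control, adjusted p = 0.000486). Another 11 receptors were not called. Among them were the integrin chains Itgav (0.23, adjusted p = 0.175), Itga5 (0.23, adjusted p = 0.479) and Itgb1 (0.05, adjusted p = 0.77). The heparan sulfate receptors Sdc1 and Sdc4 rose by 1.00 (adjusted p = 9.07e-06) and 0.87 (adjusted p = 5.96e-05). The thrombospondin receptors differed in direction, Cd36 averaging 11.16 ± 0.13 in NICD-OE-HEC and 10.65 ± 0.17 in Control (adjusted p = 0.0027) and Cd47 10.05 ± 0.15 and 10.52 ± 0.13 (adjusted p = 0.00354).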

How the data were processed

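Per the labels' protocols, total RNA was converted to biotinylated cRNA and hybridised to Affymetrix arrays. The deposited values are log2 expression values that the authors made with RMA, per the submitters' processing notes, a method that corrects background, equalises the arrays' quantiles and summarises probes. For software, chip definition and build the sources used here give nothing. Genes were named through the platform annotation of 2018 and matched by Entrez identifier to RefSeq GRCm38.p6 (48 of 48), and 0 array columns were unmapped. All 12 arrays entered lmFit and eBayes of limma 3.58.1 (R 4.3.3), as 2 groups without covariates, with Benjamini-Hochberg adjustment over 25428 probe sets and no filter. This step was tested on simulated data with independent normal noise. There, 68 probe sets were changed by 0.5 log2 units, 62 by 1 and 70 by 2. It recovered 36.8% of changes of 0.5 log2 units, 91.9% of changes of 1 and 100% of changes of 2. Of its 162 calls, 10 were on unchanged probe sets. The fit to the arrays made 2666 calls, so its cut-off in unadjusted p was looser and these rates do not carry over to it. Smaller changes can be missed. SE is the moderated standard error from limma and SD the spread over the 6 arrays of a group, and that number limits the precision. The labels call the samples biological replicates. Because arrays share their quantiles, a change of most genes in one direction would not show. The matrix genes and the lists were chosen with earlier results of these data known. The text names all matrix genes, the Notch check genes, up to 4 called genes of each further list by size, and defining markers. Cd36 and Cd47 were added after their values were seen. So were Itgav, Itga5 and Itgb1, whose refits are not given. Alternatives were median centring, renewed quantile normalization, leaving out the dimmest 25% or 50% of probe sets, array weights, robust eBayes with an intensity trend, a replicate block, leaving out each array, and a difference of at least 1. The same settings, but that of size, were applied to the further lists after seeing the data. Groups sharing replicate numbers were not treated as paired. With each group's mean subtracted from every probe set, same-numbered arrays correlated at only -0.10 to 0.22. Some list means did peak on the same number in both groups, Kupffer cell and hepatocyte markers on array 1 and early-response genes on array 5. Whether same-numbered samples were prepared together, the sources used here do not say.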

Additional observations from a re-analysis of the deposited data

Results flagged for a closer look

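In 10 of 176 sets of 6 arrays, 1 array lay far from the others by Dixon's test, and chance gives about 1 in 20. Lama4 was 9.47 on NICD-OE-HEC 3, with the next array at 9.37. Nid2 was 5.46 on Control 4 (next 5.34), Tgfbi 8.20 on Control 5 (next 7.64) and Tnxb 4.36 on Control 1, the lowest (next 4.86). Mgp was 7.12 on Control 2 (next 6.56), which is still below all NICD-OE-HEC arrays. Among the further lists, Tgfb3 was 5.23 and Myh11 6.91 on NICD-OE-HEC 4, Col4a4 was 3.87 on Control 3, and Loxl3 at 5.95 and Kcnj8 at 4.56 were lowest on Control 2. Control 2 and NICD-OE-HEC 4, the arrays that stood apart over all probe sets, hold 5 of these 10 values.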

How the results depend on the processing

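Of the 26 calls among the matrix genes, 22 held under every refit at the same threshold, which leaves aside the requirement of a difference of at least 1. 0 called differences changed sign, while Lamb2, Mfap5 and Dcn, all not called and near 0, did in some refits. The exceptions, Nid1, Thbs2, Sparc and Efemp1, were lost in some fits, and Lama5, Lamb1, Ecm1 and Emilin2 were gained in some. Of 34 calls among further named genes, 30 held in every refit that gave a value. The exceptions were Col4a1, Col4a4, Acta2 and Myh11, and Pdgfrb was gained in some fits. Matrix genes called higher numbered 20 to 24 with 1 array left out and 9 with a difference of at least 1 required. Matrix genes called lower numbered 2 to 5 with 1 array left out, 5 with array weights and 5 without Control 2, which added Lama5 and Ecm1. The replicate block gave 22 higher and 4 lower, with Sparc lost (0.29, adjusted p = 0.0559). With the group means subtracted, only 2 of the 6 NICD-OE-HEC arrays correlated best with the Control array of their own number. With 1 array left out, 6 to 7 pairs were called. A sign-flip pair test with that block called 0 of 10 pairs. Its smallest p, 0.03125, could pass the adjustment only if enough pairs reached it, and here it became 0.0625. Of the pairs called in the main test, Nid1 against Nid2 and Fbln2 against Fbln5 had an adjusted p of 0.0781, the others 0.0625. Laminin chains called lower became 2 without the dimmest 25% or 50%, with trend and robust eBayes, array weights, the block, or without Control 2 and NICD-OE-HEC 4 (1 to 2 with 1 array left out). Adhesive genes called lower became 2 with array weights (0 to 2 with 1 left out). With a difference of at least 1, 1 laminin, 0 linker, 5 adhesive, 3 elastic fibre and 0 latent TGF-beta binding genes were higher, and 0 adhesive genes lower. Collagens of the basement membrane called higher became 2 without the dimmest 50%, with trend and robust eBayes or with the block, and 0 without both arrays (0 to 2 with 1 left out), and 1 was lower without the dimmest 50%. That filter took out Col4a3 and Col4a4, so their calls were not tested there. Kupffer markers higher became 2 without the dimmest 50% or with array weights and 3 with the block (1 to 2). Hepatocyte markers higher became 3 with trend and robust eBayes (3 to 8), and 1 was lower with the block. Matrix receptors lower became 2 with array weights (1 to 2), crosslinking enzymes lower 2 with the block (1 to 2), and pan-endothelial genes higher 1 without both arrays (1 to 2). The causes were not tested. Genes near the array median have inexact sizes.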
